A study of Mus musculus with 6 samples.

Results

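The genes described here encode 7 chemokines that cytotoxic T cells or their neighbours make: Ccl1, Ccl3, Ccl4, Ccl5, Ccl9, Xcl1 and Cxcl10. They were chosen by symbol, and every probe set that the array's annotation assigns to exactly 1 of these symbols was read, which gave 8 probe sets of 45101, and 7 genes of the 13194 tested. Ccl9 has 2 probe sets and each other member has 1. All cells came from C57Bl/6 mice whose T cells carry the P14 receptor, a transgenic receptor for the gp33 peptide of a mouse virus. Spleen cells were stimulated with gp33 for 24 h, exposed to a retrovirus and sorted on GFP. The 3 GFP positive samples carry GFP fused to a form of HDAC7 that cannot be phosphorylated, and the 3 GFP negative samples, labelled as control, are the cells of the same infected cultures that lack it. HDAC7 is a histone deacetylase that represses genes while it is in the nucleus and leaves the nucleus when it is phosphorylated. Both groups therefore share the receptor, the stimulation and the exposure to virus, and cells with GFP alone were not analysed here. The labels give no age of the animals. They call each sample a numbered biological replica, but do not say whether a group's 3 samples are distinct mice or cultures. The p-values therefore reflect only how much these samples vary. Each sample was hybridised to 1 Affymetrix mouse array, and 3 arrays per group limit the precision.

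Chemokines are small secreted proteins that steer leukocytes through G protein-coupled receptors, and they are classed by the spacing of the first cysteines (C, CC or CXC). Activated cytotoxic T cells are known to release CCL3, CCL4, CCL5 and XCL1, the last a ligand for the receptor XCR1 on a class of dendritic cells. CXCL10 is an interferon-induced ligand of CXCR3, CCL1 is the ligand of CCR8, and CCL9 is a myeloid chemokine that binds CCR1.

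In GFP positive cells the genes of 3 inflammatory CC chemokines were lower. Ccl3 fell by 1.58, Ccl4 by 0.92 and Ccl5 by 0.92 on the log2 scale, and in each the 3 GFP positive arrays lay below the 3 GFP negative arrays. Xcl1, Ccl1, Ccl9 and Cxcl10 did not pass the test. Of the 7 members, 3 were therefore lower and 0 higher. Across the 13194 genes tested, 17.5% were lower and 42.1% changed in either direction, so the 3 of 7 members called are close to the share for the array in either direction. The same 3 members had groups that did not overlap, with GFP positive lower, as did 24.2% of all genes tested (53.8% did not overlap in either direction). The median change was -0.31 over the members and -0.02 over all genes tested. In sorted samples of bulk RNA, fewer cells that express a gene and less RNA of it per cell cannot be told apart.

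Values are log2 signals as deposited, and 2 reference levels help to read low ones. Probe sets for TrpnX, a bacterial control sequence, read at most 0.97 on any array. Genes under the 40th percentile of mean signal, a level of 1.27, were left out of the test, and a group mean under that level is called near background. All 7 genes passed this filter, Ccl9 narrowly and Ccl3 only through its level in GFP negative cells.

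Ccl3 encodes MIP-1 alpha, an inflammatory chemokine that binds CCR1. It read 2.31, 3.23 and 2.92 in GFP negative replicates 1, 2 and 3, and 1.31, 1.28 and 1.12 in the GFP positive replicates. Every GFP negative array lay above every GFP positive array, and the GFP positive arrays lay at 1.31 or lower, close to the filter level. The group means were 2.82 ± 0.47 and 1.24 ± 0.10 (SD, n = 3), a change of -1.58 ± 0.21 (SE; 95% interval -2.06 to -1.10; limma adjusted p = 0.000713). No fold is given because the GFP positive mean is near background. When a constant of 32 was added to the linear signals, which damps differences between dim values, the change was -0.19 (limma adjusted p = 0.0173).

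The 250 bases before the start of Ccl3 are shown because Ccl3 had the largest change of the members in deposited log2 units, an order that rests on a near-background group mean and turns with 32 added (Ccl5 -0.43, Ccl3 -0.19, Ccl4 -0.17). The stretch lies at chr11:83649379-83649628 on the minus strand of GRCm38.p6 and is taken from RefSeq, written 5′ to 3′. The Cxcl10 stretch, at chr5:92348890-92349139 on the minus strand, is set beside it because Cxcl10 is the interferon-induced member. Capitals mark every match, on either strand, to 6 motifs: GGGANNTTC (NF-kB), GAAANNGAA (a shortened form of the interferon-stimulated response element, ISRE), TGANTCA (AP-1), TGACGTCA (CRE), TTCNNNGAA (GAS, the STAT site) and GGAAAA (NFAT).
Ccl3: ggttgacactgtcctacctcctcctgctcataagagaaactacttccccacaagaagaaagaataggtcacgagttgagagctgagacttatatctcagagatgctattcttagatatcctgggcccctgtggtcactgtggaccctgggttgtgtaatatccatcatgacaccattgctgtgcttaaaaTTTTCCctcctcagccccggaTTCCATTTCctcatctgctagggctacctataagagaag
Cxcl10: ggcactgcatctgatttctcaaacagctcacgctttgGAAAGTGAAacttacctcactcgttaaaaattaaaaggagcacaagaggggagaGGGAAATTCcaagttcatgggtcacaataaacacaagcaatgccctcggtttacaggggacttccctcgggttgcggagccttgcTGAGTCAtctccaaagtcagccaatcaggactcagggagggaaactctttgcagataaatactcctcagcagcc

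In the Ccl3 stretch the script found an NFAT match from -60 to -55 and an ISRE match from -39 to -31, both on the opposite strand, with positions counted back from the start of the transcript. Cxcl10 held an ISRE match from -213 to -205, an NF-kB match from -159 to -151 and an AP-1 match from -74 to -68, all on the gene's own strand. Of 32841 promoters of 300 bases (250 before the start and 50 after), 8.56% hold the ISRE letters, 3.94% the NF-kB letters, 7.81% the AP-1 letters and 23.4% the NFAT letters. Promoters were at hand for 5 members (Ccl1, Ccl3, Ccl9, Xcl1 and Cxcl10), of which 3 hold the ISRE letters, 2 the NF-kB letters, 2 the AP-1 letters and 2 the NFAT letters. The CRE letters, in 1.79% of all promoters, and the GAS letters, in 8.3%, were found in 0 of the 5. In the Ccl1 promoter the 2 NF-kB matches overlap each other and an NFAT match overlaps the ISRE match. A match of letters is a description and shows no binding.

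Ccl4 encodes MIP-1 beta, an inflammatory chemokine that attracts T cells and monocytes, and is the next gene to Ccl3 on the chromosome. It read 3.11, 3.11 and 3.64 in GFP negative cells and 2.62, 2.08 and 2.39 in GFP positive cells. The lowest GFP negative array lay above the highest GFP positive array, with replicate 1 closest together. The means were 3.28 ± 0.31 and 2.36 ± 0.27 (SD, n = 3), which is 1.89-fold lower in GFP positive cells (change -0.92 ± 0.18 SE, 95% interval -1.34 to -0.50, limma adjusted p = 0.00473). GFP negative replicates 1 and 2 hold the same deposited value to its last digit. Such repeats between arrays occur in 12.4% of probe sets past the filter. With 32 added in linear units the change was -0.17 (limma adjusted p = 0.0276). Both Ccl4 means lie where markers of other cell types also read. In GFP negative and GFP positive cells the platelet gene Itga2b read 3.61 and 3.14, and the neutrophil gene Elane 2.22 and 2.10.

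Ccl5 encodes RANTES, a ligand of CCR1 and CCR3 that effector and memory CD8 T cells make. Its signal was 5.33, 5.43 and 4.93 in GFP negative cells and 4.25, 4.50 and 4.18 in GFP positive cells. The lowest GFP negative array, 4.93, lay above the highest GFP positive array, 4.50. The change within each replicate number ranged from -1.08 to -0.75. The means were 5.23 ± 0.26 and 4.31 ± 0.17 (SD, n = 3), or 1.89-fold lower (change -0.92 ± 0.15 SE, 95% interval -1.25 to -0.58, limma adjusted p = 0.00169). With 32 added in linear units Ccl5 fell by 0.43, a larger remainder than for Ccl3 or Ccl4. The B cell marker Cd79b read 4.50 in GFP negative and 4.35 in GFP positive cells, close to the Ccl5 mean in GFP positive cells.

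Within replicate numbers, Ccl3 changed by -1.95 and -1.80 in replicates 2 and 3 and by less in replicate 1, and Ccl4 changed by -0.49, -1.02 and -1.25. Every paired difference of Ccl3, Ccl4 and Ccl5 was below 0. Replicate 1 gave the smallest difference for Ccl3 and Ccl4, and the largest, -1.08, for Ccl5. The 95% intervals of the 3 changes overlap, and the differences between the genes were not tested.

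**Figure D1:**
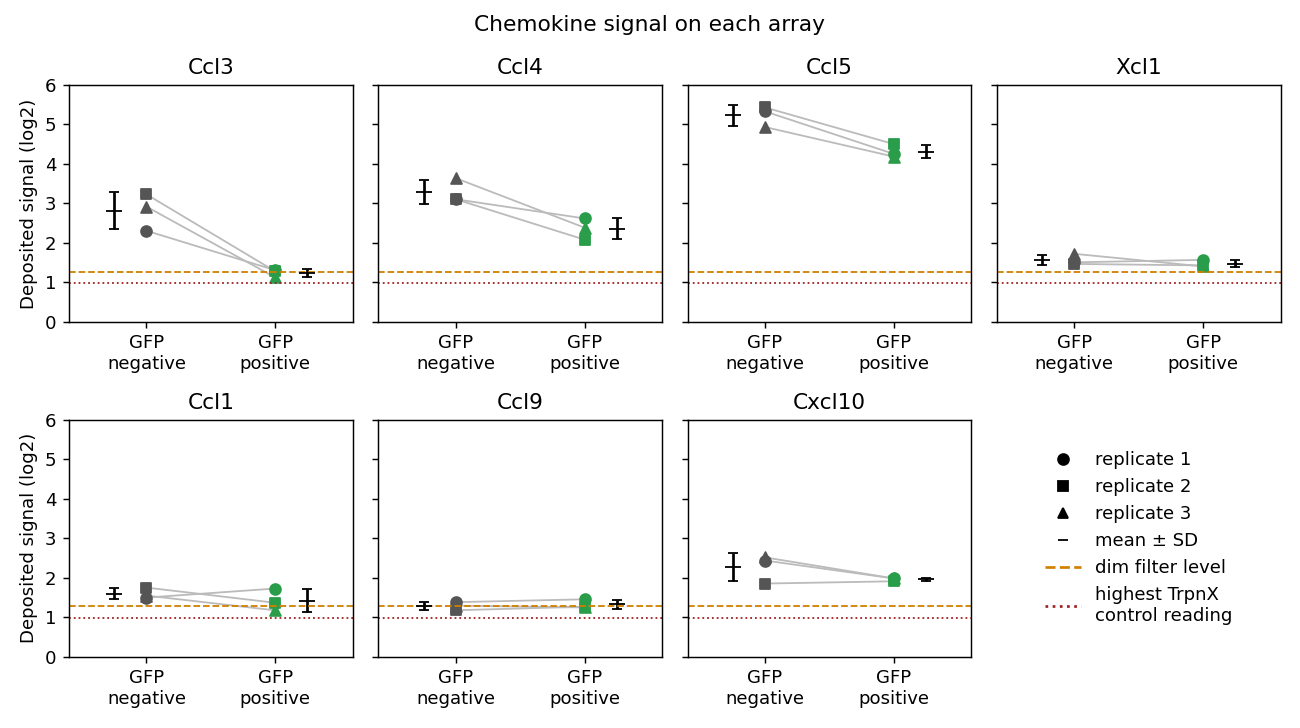
Deposited log2 signal (y axis) of each chemokine gene on the 6 arrays, by sorted group (x axis), with grey lines joining samples of the same replicate number and black bars for mean ± SD (n = 3). Ccl3, Ccl4 and Ccl5 lie lower on every GFP positive array, whereas Xcl1, Ccl1 and Ccl9 stay close to the dim filter level of 1.27 (dashed) and Cxcl10 overlaps between groups; the dotted line is the highest TrpnX control reading, 0.97.

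Cxcl10 encodes IP-10, which recruits CXCR3-bearing T cells. It read 2.43, 1.85 and 2.51 in GFP negative cells and 1.98, 1.91 and 1.98 in GFP positive cells. GFP negative replicate 2 lay below all 3 GFP positive arrays, so the groups overlapped. The change was -0.31 ± 0.16 (SE; 95% interval -0.69 to 0.07; limma adjusted p = 0.163). That array decides the call: without GFP negative replicate 2 the change was -0.52 and passed (limma adjusted p = 0.0056), and without either of the other GFP negative replicates it was -0.23 and -0.19.

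Other interferon-response genes are given for reference, as Cxcl10 belongs to that response. From the list fixed for this purpose, 14 genes had a probe set with a single symbol and 12 passed the filter. Of those tested, 12 of 12 rose, against 24.6% of all genes tested, with a median change of 1.26. Irf9, a subunit of the factor that binds the ISRE, rose by 1.38, and Mx1, an antiviral GTPase gene, by 2.09. Usp18, which strips ISG15 from proteins, rose by 2.40. Oasl2, encoding an OAS-like protein, rose from near background (0.82) to 2.01 and passed the filter only through its level in GFP positive cells. With 32 added in linear units these 4 changes were 0.85, 0.50, 1.44 and 0.09, and 11 of the 12 genes passed. The ISRE letters occur in the promoters of 5 of the 10 genes that have one here. The 2 genes of this list that the filter left out are the other CXCR3 ligand genes, Cxcl9 and Cxcl11. They were near background in both groups and did not read higher in GFP positive cells. In GFP negative and GFP positive cells Cxcl9 read 1.10 and 0.93, and Cxcl11 read 0.99 and 0.87. The difference between Cxcl10 and the genes that rose was not tested.

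Xcl1 encodes lymphotactin, the C-type chemokine that calls dendritic cells bearing XCR1. It read 1.51, 1.47 and 1.72 in GFP negative cells and 1.57, 1.43 and 1.40 in GFP positive cells, and the groups overlapped (change -0.10, 95% interval -0.32 to 0.13, limma adjusted p = 0.438). Ccl1, a chemokine gene of activated T cells, read 1.49, 1.75 and 1.55, then 1.72, 1.36 and 1.17. GFP positive replicate 1 sat among the GFP negative arrays while replicate 3 was lowest (change -0.18, 95% interval -0.51 to 0.16, limma adjusted p = 0.352). For both genes the interval allows a modest fall as well as a small rise.

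Ccl9, the myeloid member, had the lowest signal relative to the filter. Its brighter probe set read 1.38, 1.17 and 1.29 in GFP negative cells and 1.45, 1.26 and 1.24 in GFP positive cells (change 0.04, 95% interval -0.18 to 0.26, limma adjusted p = 0.755). The dimmer one read 0.62 to 0.78 on the 6 arrays, within the range of the TrpnX controls, and was not tested. The sign of the Ccl9 change turned to -0.076 when arrays were centred on their medians, and to -0.014 without GFP negative replicate 2. Levels this low leave little room to see a fall in Xcl1, Ccl1 or Ccl9, so these results say only that no difference was detectable here.

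**Figure D2:**
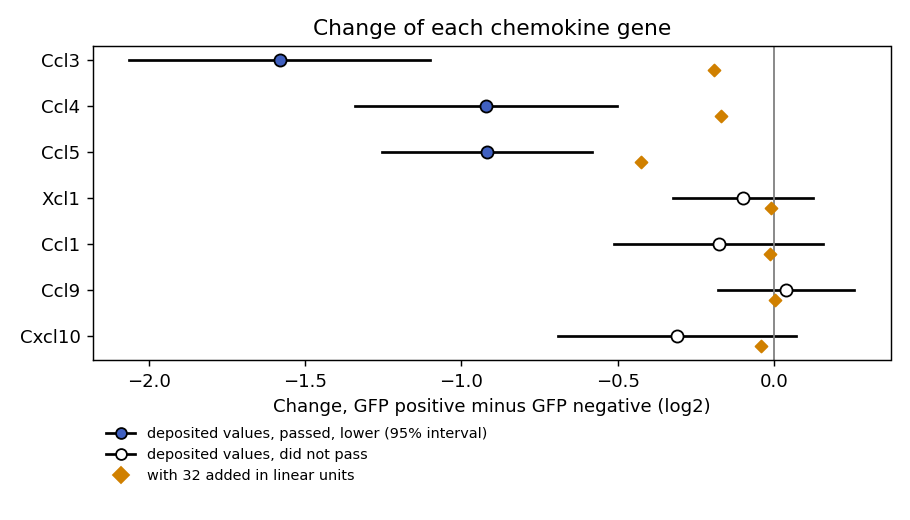
Change in log2 signal, GFP positive minus GFP negative (x axis), for each chemokine gene (y axis), with circles for deposited values, lines for the 95% interval and diamonds for the change with 32 added in linear units. The intervals of Ccl3, Ccl4 and Ccl5 lie wholly below 0, and their changes shrink to -0.19, -0.17 and -0.43 with the added constant.

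Ccl3, Ccl4, Ccl5 and Ccl9 are neighbours in a cluster of CC chemokine genes, and the genes around them were read in the order of the RefSeq annotation (a window chosen after the members' values were seen). Between Ccl5 and Ccl4 the order is Ccl5, Ccl9, Ccl6, Ccl3, Ccl4. The 3 genes that fell are thus interrupted by Ccl9 and by Ccl6, a myeloid chemokine gene near background in both groups (1.14 and 0.99). Beyond Ccl4, Wfdc17 and Wfdc18 had changes of 0.17 and -0.15 and did not pass, and Heatr6, at 5.32 and 5.34, had a change of 0.02. Before Ccl5, the RNA-binding protein gene Taf15 rose by 1.03 and 1700020L24Rik did not pass (0.15). The window holds 13 protein-coding genes, of which 9 were tested and 4 were not (Mmp28, Heatr9, Ccl6 and Wfdc21). The 3 of the 9 that fell are the members called above. As the window was drawn around them, their place in it was fixed beforehand. Over all genes tested, 17.5% were lower.

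**Figure D3:**
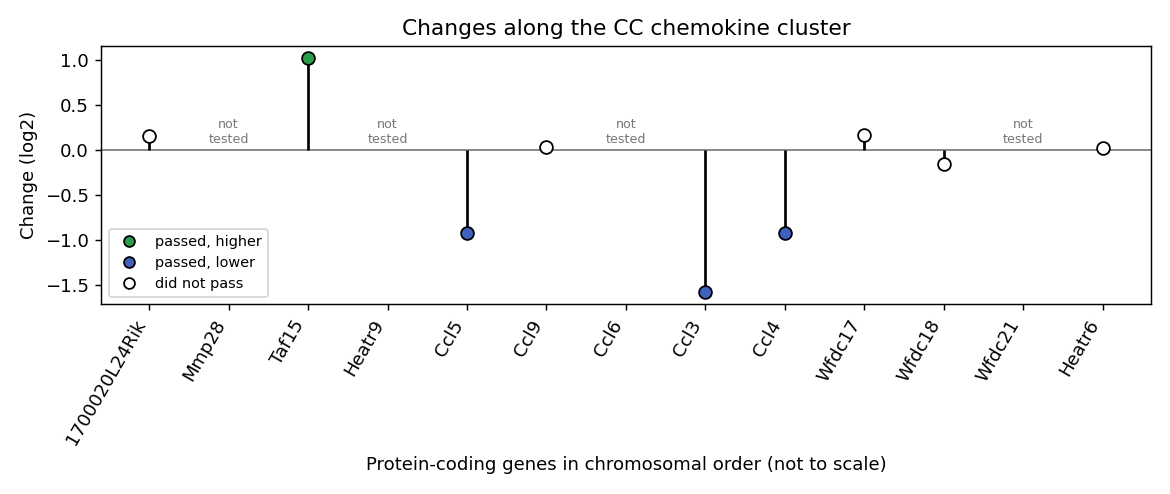
Change in log2 signal, GFP positive minus GFP negative (y axis), of the protein-coding genes from 4 before Ccl5 to 4 after Ccl4 in chromosomal order (x axis, not to scale), where filled circles passed the test. Ccl5, Ccl3 and Ccl4, around which the window was drawn, are the genes that fell, while Ccl9 between them and Heatr6 at the far end had changes of 0.04 and 0.02.

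Other chemokine ligand genes were mostly dim. Of 30 on the list, 28 had a probe set with a single symbol and 14 passed the filter. Of those 14, 3 fell, 0 rose and 11 did not pass (median change -0.15), beside 17.5% lower and 24.6% higher over all genes tested. Ccl8 and Ccl2, monocyte attractants, changed by -0.39 and -0.35 from levels of 1.69 and 1.49 to 1.30 and 1.14. The GFP positive mean of Ccl2 is near background, so Ccl2 passed the filter only through its level in GFP negative cells. Without GFP negative replicate 1 it fell under the filter and was not tested. Cxcl16, a membrane-bound ligand of CXCR6, changed by -0.34 from 3.57. All 3 lost their calls with 32 added in linear units, without GFP positive replicate 2, without GFP positive replicate 3, and without the latter and GFP negative replicate 1 together. Cxcl16 also lost its call with any 1 GFP negative replicate left out and with the replicate number as a block (limma adjusted p = 0.0584). The brightest that did not pass were Cxcl17 and Cxcl1, with changes of -0.38 and -0.03, and Ccl24, at 2.61 in both groups. Cxcl17 passed with the block (limma adjusted p = 0.00954). It also passed with the filter at the 60th percentile, quantile normalization, median centring and the mean over probe sets. Leaving out GFP negative replicate 2 or GFP positive replicate 1 had the same result. Of the 14 genes, 4 were lower with the block, 6 with median centring and 0 with 32 added.

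Among receptors for the members, Cxcr3 was the gene with signal. Cxcr3, the CXCL10 receptor of effector T cells, rose from 8.62 ± 0.09 to 9.74 ± 0.06 (SD, n = 3), or 2.18-fold (limma adjusted p = 8.3e-05), and by 1.06 with 32 added. Ccr1, Ccr3, Ccr8 and Xcr1 were near background in both groups, at 0.48 to 1.01, and were not tested. The test covered 13 other chemokine receptor genes, with 3 higher, 4 lower and 6 not past the threshold. Over all genes tested, 24.6% were higher and 17.5% lower. Cxcr4, the receptor of CXCL12, rose by 1.26, Ccr4 by 0.53 and the atypical receptor gene Ccrl2 by 0.56, while Cxcr6, the receptor of CXCL16, fell by 0.98 (0.68, 0.11, 0.10 and -0.31 in that order with 32 added). Ccr7, Ackr1 and Ccr2 were the others that fell, by 0.31, 0.41 and 0.34, and each lost its call without GFP positive replicate 3 and without GFP negative replicate 3. Ackr1 and Ccr2 also lost it without GFP negative replicate 1, without GFP positive replicate 2 and with 32 added, and Ccr2 without GFP negative replicate 2. The brightest that did not pass were Cxcr5, Ackr4 and Ccr10, with changes of 0.81, -0.24 and -0.23. Cxcr5 and Ackr4 passed with the replicate block (limma adjusted p = 0.0145 and 0.0469), and with the mean over probe sets Ackr4 turned to a rise of 0.39, so its probe sets disagree.

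Many genes that carry or curb the signal of chemokine receptors inside the cell were higher. Among 19 tested genes 12 were higher and 0 lower, and 7 missed the threshold (median change 0.58), beside 24.6% higher and 17.5% lower over all genes tested. Rgs2, a regulator that switches off G proteins, rose by 2.91 from 2.32 to 5.23 (0.92 with 32 added). Rac2, a GTPase of the leukocyte cytoskeleton, rose by 0.60, Dock2, its exchange factor in migrating lymphocytes, by 0.58, and Pik3r5, the adaptor of PI3K gamma, by 0.61. With the mean over probe sets in place of the brightest, the rise of Dock2 was 0.36. Rac1, Gnb1 and Arrb2, the brightest that did not pass, had changes of 0.24, 0.23 and -0.09. Without GFP negative replicate 1 and GFP positive replicate 3 together, 8 rose.

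Of transcription factor genes known to act at chemokine promoters, 7 of 18 tested were higher, 0 were lower and 11 missed the threshold (median change 0.28), beside 24.6% higher over all genes tested. With the replicate block 10 were higher, as Egr1 (1.29), Rel and Relb gained calls (limma adjusted p = 0.00486, 0.033 and 0.0487). Nfatc2, the NFAT1 gene, rose by 0.73, Jun (AP-1) by 1.11, Klf13, which encodes a factor known to drive CCL5 in T cells, by 0.76, and Irf1 by 0.97. The rise of Jun was 0.71 with 32 added. With the mean over probe sets, Klf13 rose by 0.41 and Nfatc2 lost its call (0.03), so its probe sets disagree. Jund, Nfatc3 and Runx3, the brightest that did not pass, had changes of -0.03, 0.08 and 0.14.

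Secreted products of cytotoxic T cells moved in both directions. Of 8 tested, 3 rose and 3 fell, beside 24.6% higher and 17.5% lower over all genes tested. Ifng, the interferon gamma gene, went from 3.15 ± 0.45 to 4.81 ± 0.16 (SD, n = 3), and Prf1 (perforin) rose from 2.89 to 4.39. Gzmb (granzyme B) fell from 12.58 to 11.58 and Fasl, the death ligand gene, by 1.44, which puts them on the same side as Ccl3, Ccl4 and Ccl5. With 32 added the changes of Ifng, Prf1 and Fasl were 0.55, 0.43 and -0.37. With the mean over probe sets the rise of Prf1 was 0.73. The others that passed were Gzma, with a change of 1.83, and Gzmc, with -0.49. Gzmc lost its call with 32 added and without GFP negative replicate 3. Lta and Tnf did not pass, at -0.43 and 0.36.

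**Figure D4:**
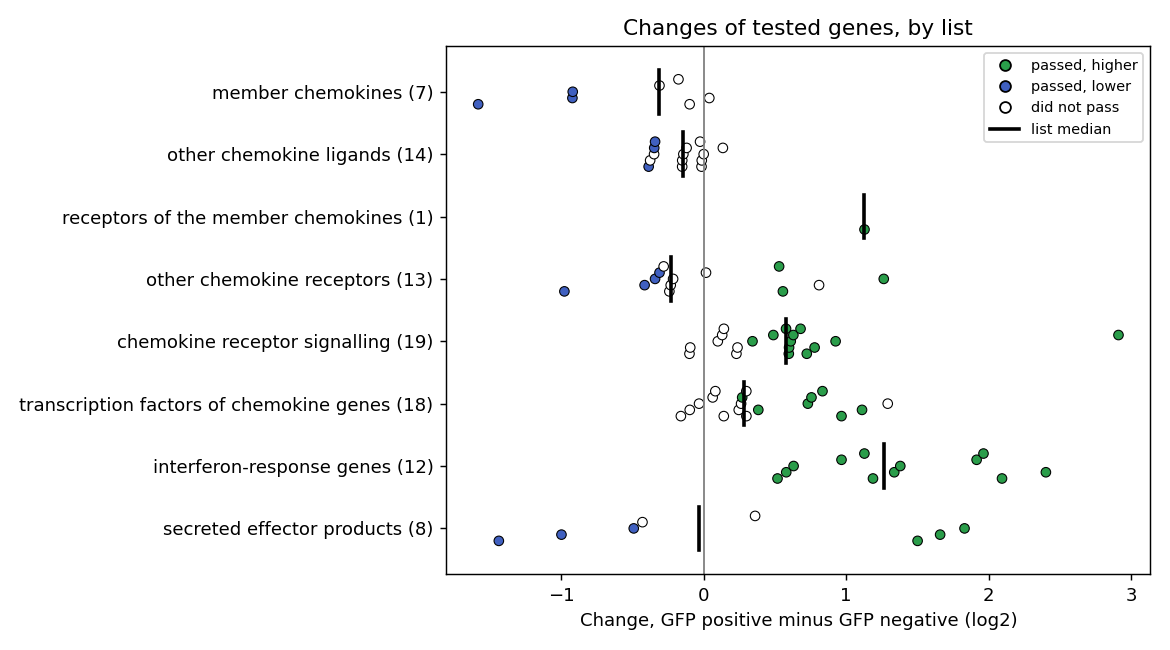
Change in log2 signal, GFP positive minus GFP negative (x axis), of every tested gene in each list (y axis, number tested in brackets), with black bars at list medians. The member chemokines have a median of -0.31 with 3 genes lower, and the interferon-response genes a median of 1.26 with 12 of 12 higher.

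By pattern over the 6 arrays, the genes most like Ccl3 were Psmd9, a proteasome assembly gene, and Tmed3 (Pearson r = 0.999 and 0.998), those most like Ccl4 were Jph2 and Tmem14c (r = 0.995 for both), and those most like Ccl5 were Ints2 and Pus10 (r = 0.998 and 0.997). These 6 genes changed by -0.37 to -0.24, far less than the chemokines. With 6 arrays in 2 groups such values are common, and r was over 0.95 for 435, 106 and 354 of 13193 genes.

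The arrays were alike in most checks. The median log2 signal was 1.69 to 1.72 in GFP negative and 1.62 to 1.66 in GFP positive samples, and the actin 3′ minus 5′ difference was 0.43 to 0.53 over all 6 arrays. GFP positive replicate 3 stood apart on spiked hybridisation controls, at 8.04 against 7.59 to 7.75 on the others. Without it and GFP negative replicate 1, Ccl3, Ccl4 and Ccl5 still passed, with changes of -1.78, -1.02 and -0.81. Of 2 Hdac7 probe sets 1 went from 4.83 to 8.15 and the other from 6.74 to 6.19, and Il2ra fell by 2.31. Beside the marker counts that follow, 24.6% of all genes tested were higher and 17.5% lower. Of 7 cytotoxic T cell markers tested, 5 were higher in GFP positive cells, among them Cd8b1 (9.55 to 10.70), Cd3g by 0.67 and Cd3e by 0.55. In the same list 1 was lower (Gzmb), and Cd3d, at 10.38 and 10.33, did not pass. The part of this shift in the results for the chemokine genes was not tested. Among markers of other cell types, 3 of 5 dendritic cell genes tested were lower, Flt3 from 2.54 to 2.07, Zbtb46 from 2.49 to 2.01 and Siglech from 1.86 to 1.64, and the list's summed linear signal was 20.6 to 21.0 in GFP negative and 16.2 to 18.5 in GFP positive samples. Itgax and Cd209a had changes of 0.05 and -0.03. That list moved in the same direction as Ccl3, Ccl4 and Ccl5, and its part in their fall was not tested. With 32 added Zbtb46 and Siglech lost their calls. Siglech also lost it with the replicate block and when any 1 replicate was left out, and Zbtb46 without GFP negative replicate 2 or 3 or GFP positive replicate 3. Without GFP negative replicate 1 and GFP positive replicate 3 together, all 3 of these dendritic cell genes lost their calls. Of 6 macrophage or monocyte genes tested 1 was higher and 1 lower, with a summed signal of 32.2 to 33.4 and 33.6 to 36.8 (Cd68 from 1.76 to 2.86 and Ms4a7 from 1.78 to 1.34), and the brightest, Csf1r and Fcgr1, did not pass and had changes of -0.32 and 0.22. Csf1r passed as lower with the replicate block (limma adjusted p = 0.0239), without GFP positive replicate 1, with either array scaling, with the stricter filter and with the mean over probe sets. Ms4a7 lost its call with the block (limma adjusted p = 0.0546), with quantile normalization, with 32 added, and without GFP negative replicate 2 or 3 or GFP positive replicate 2 or 3. The part of these markers in the fall of Ccl3, Ccl4 and Ccl5 was not tested. Adgre1, Cd14 and Itgam were near background in both groups. For platelets 1 of 3 genes was lower (Itga2b, 3.61 to 3.14), and 0 of the tested B cell (4), CD4 T cell (3), NK cell (1) and neutrophil (3) markers passed in limma's test.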

How the data were processed

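Total RNA of 6 sorted samples was hybridised to Affymetrix mouse expression arrays, per the labels' protocols. The authors deposited log2 signal values, a unit read from their range. They were made in Affymetrix Expression Console, per the submitters' processing notes, which give no version. Details of summarisation, background correction and normalization were not given in the sources used here. The deposited values were used unchanged. Each gene was represented by its brightest probe set with a single symbol. GFP positive and GFP negative samples were compared by limma 3.58.1 in R 4.3.3 (a two-sided test with a single group term), and p-values were adjusted by Benjamini-Hochberg over 13194 genes at a threshold of 0.05. A second fit over 27022 probe sets called the same number of member probe sets, 3.

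Samples with the same replicate number deviated together (r = 0.47, 0.35 and 0.25 across genes), so the numbers were taken to pair the samples and a fit with the number as a block was run. The members, lists and tests were chosen with earlier results of these data known. Named genes were all members, those of their receptors analysed here, Hdac7 and Il2ra, up to 4 genes per list by unadjusted p and up to 3 of the brightest that did not pass, for each other cell type its 2 brightest markers (printed in full only for dendritic cells and macrophages), and the 2 genes most correlated with each member that passed. Other names, such as Ccr7, Ackr1, Ccr2, Cxcl9, Cxcl11, Ccl6, Gzma, Gzmc, Cd3d, Cd3e, Cd3g, Cd8b1, Egr1, Rel, Relb, Siglech, Cd68, Ms4a7, Itgax, Cd209a, Adgre1, Cd14, Itgam and those of the gene window, were chosen after their values were seen. RefSeq promoters (GRCm38.p6) matched 5 of 7 members by symbol. Some genes of the lists are not analysed here.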

Additional observations from a re-analysis of the deposited data

How the results depend on the processing

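Ccl3, Ccl4 and Ccl5 stayed lower and past the threshold in every alternative that could fit them. Leaving out each replicate in turn gave -1.84 to -1.38 for Ccl3, -1.05 to -0.74 for Ccl4 and -1.07 to -0.82 for Ccl5. The same ranges were -0.52 to -0.19 for Cxcl10, -0.33 to -0.05 for Ccl1, -0.15 to -0.02 for Xcl1 and -0.014 to 0.088 for Ccl9, and 3 to 4 members passed. Ccl9 turned to -0.076 with median centring, and could not be fitted without GFP positive replicate 1, where it fell under the filter. With the stricter filter at the 60th percentile only Ccl4 and Ccl5 could be fitted, and both passed. The replicate block kept 3 members past the threshold and changed no member's call (Ccl3 limma adjusted p = 0.00165 with the block). Over all genes, 5557 passed, 3248 higher and 2309 lower. Without GFP negative replicate 1 and GFP positive replicate 3 together these counts were 3347, 2085 and 1262, with fewer samples in the fit. With median centring 3819 were lower, and the share higher among calls went from 58.4% to 39.6% (49.0% with quantile normalization), as the median change of all genes moved from -0.02 to -0.14. Levels close to background limit what can be seen for Xcl1, Ccl1, Ccl9 and, in GFP positive cells, Ccl3. Ccl4 (3.28 in GFP negative and 2.36 in GFP positive cells) and Cxcl10 (2.27 and 1.96) were also dim. They read at levels where markers of other cell types also read, which limits them too. The same limit holds for Ccl5 in GFP positive cells (4.31), where the B cell marker Cd79b read 4.35. In GFP negative cells Ccl5 read 5.23 and Cd79b 4.50.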
